A study of Drosophila melanogaster with 2 samples.

Results

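The E(spl) complex and Notch pathway genes described here are 10 genes: 7 that encode basic helix-loop-helix (bHLH) repressors of the Enhancer of split complex (E(spl)m3-HLH, E(spl)m5-HLH, E(spl)m7-HLH, E(spl)m8-HLH, E(spl)mbeta-HLH, E(spl)mgamma-HLH and E(spl)mdelta-HLH), together with neur, N and Dl. They were chosen by name from 13945 annotated protein-coding genes on the chromosome arms. For each, every peak with its summit between 2 kb upstream and 2 kb downstream of the gene was taken from 4 deposited peak lists. The study mapped the binding sites of CG10147 (a protein predicted to hold zinc fingers) by chromatin immunoprecipitation sequencing with an anti-GFP antibody. All libraries came from a single transgenic line that stably expresses CG10147 with GFP at its carboxyl end, from whole embryos of pooled sexes aged 0 to 24 hours, with chromatin sheared to 200 to 800 bp. There were 2 libraries, biological replicates 2 and 3, and no other condition, so no test between groups was possible. Whole embryos of this age range mix every tissue and stage of embryogenesis, and the promoter that drives the transgene is not given in the labels.

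Notch signalling lets a cell instruct its neighbour. The ligand Delta (Dl), helped by the ubiquitin ligase Neuralized (neur) in the sending cell, binds the receptor Notch (N), whose cleaved intracellular part enters the nucleus and joins Suppressor of Hairless, Su(H). In the Drosophila nervous system the E(spl) bHLH genes are the classic targets. Their proteins recruit the corepressor Groucho (gro) and repress proneural genes, which keeps the receiving cell from becoming a neural precursor.

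CG10147-GFP peaks of the reproducibility-thresholded list (IDR, irreproducible discovery rate) lay in the windows of 5 of the 10 genes: E(spl)m3-HLH, E(spl)m7-HLH, E(spl)m8-HLH, neur and N. No IDR peak lay in the windows of E(spl)m5-HLH, E(spl)mbeta-HLH, E(spl)mgamma-HLH, E(spl)mdelta-HLH or Dl. Among all protein-coding genes 34.7% had an IDR peak in the same window. Larger genes have larger windows: the share was 24.7% for genes of up to 2 kb, the size class of all 7 E(spl) bHLH genes, of which 3 had a peak, and 57.7% for genes over 10 kb, the class of neur, N and Dl, of which 2 had a peak. At their own promoters, meaning a summit within 500 bp of an annotated transcription start site (TSS), E(spl)m3-HLH, E(spl)m7-HLH and neur had an IDR peak, 3 of 10 against 20.3% of all genes. With so few members these shares describe the genes and were not tested.

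The 5 windows held 10 IDR peaks. Their signals, in the units of the authors' peak caller, ran from 167.7 to 767.6 with a median of 352.1, beside a median of 228.7 and a range from 144.6 to 4880 over all 4576 IDR peaks. Of the 10 summits, 7 lay at a promoter of some gene, 2 in introns and 1 in an exon of a long noncoding RNA. These classes were not counted over all IDR peaks, so the counts only describe the 10 summits. The IDR rows are the strongest 4576 rows of the list called on both libraries pooled, so the rank of a peak is the same in both lists, with rank 1 the strongest.

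The sequences under the strongest member peaks are shown because they are the DNA on which the account of each bound gene turns. Each covers 121 bp centred on the summit, on the plus strand of dm6 (Release 6 assembly of RefSeq). Capitals mark matches, on either strand, to any of the 10 motif sets searched. In these sequences the matches are AT-rich heptamers (ATATTTT or TTTTAAA or AAAATAT), the GAGA element GAGAG, and TATAAA or its complement TTTATA.
E(spl)m3-HLH promoter, chr3R:26021316-26021436: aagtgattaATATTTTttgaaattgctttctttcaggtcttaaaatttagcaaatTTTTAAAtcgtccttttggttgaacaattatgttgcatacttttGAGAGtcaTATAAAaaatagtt
E(spl)m7-HLH promoter, chr3R:26036645-26036765: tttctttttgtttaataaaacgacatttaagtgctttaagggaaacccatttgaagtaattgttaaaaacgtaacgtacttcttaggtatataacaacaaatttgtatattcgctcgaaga
gro intron in the E(spl)m8-HLH window, chr3R:26042424-26042544: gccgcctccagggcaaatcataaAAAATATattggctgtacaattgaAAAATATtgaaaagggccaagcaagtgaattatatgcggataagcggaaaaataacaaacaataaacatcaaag
neur, upstream of its internal start site, chr3R:9033895-9034015: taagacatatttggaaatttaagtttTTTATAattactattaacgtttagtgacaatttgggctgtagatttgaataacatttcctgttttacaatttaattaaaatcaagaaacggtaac
neur intron, chr3R:9031924-9032044: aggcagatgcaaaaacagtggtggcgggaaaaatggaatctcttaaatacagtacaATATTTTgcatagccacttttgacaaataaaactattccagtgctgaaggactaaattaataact
N intron, chrX:3162511-3162631: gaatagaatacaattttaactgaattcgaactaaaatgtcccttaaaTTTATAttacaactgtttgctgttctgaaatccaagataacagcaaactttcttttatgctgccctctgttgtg
Matches in these letters are descriptions of sequence only. The E(spl)m7-HLH sequence has no capitals because none of the motif sets occurs in it.

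The strongest peak of all 10 genes was at the promoter of E(spl)m3-HLH (FBgn0002609; 3R, 26021823 to 26023127, plus strand). The peak region ran from 26021175 to 26021602, with its summit at 26021376, 447 bp upstream of the E(spl)m3-HLH TSS. It is the AT-rich sequence shown first, with a G+C content of 24.5% over 200 bp. Its IDR signal was 767.6 and its IDR rank 269. In the replicate 3 list the same base was the summit, with a signal of 662.2 and rank 125. In replicate 2 the summit was 43 bp away, with a signal of 133.5 and rank 1310. The interval is shared: the noncoding RNA gene lncRNA:CR43644 starts 300 bp from the same summit and points the other way, so the peak cannot be given to one of the genes alone. A weaker IDR peak (26020308 to 26020691, summit 26020500, signal 209.2, rank 2647) lay in an exon of that noncoding RNA, 1323 bp upstream of E(spl)m3-HLH. Replicate 2 had a summit 25 bp from it at rank 2877. Replicate 3 had none within 100 bp, and its nearest, at 26020393, ranked 2466 with a signal of 137.6.

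E(spl)m7-HLH (FBgn0002633; 3R, 26037038 to 26038019, plus strand) had 1 IDR peak, from 26036680 to 26036776, with its summit at 26036705, 333 bp upstream of the TSS. Its signal was 321.3 and its rank 1340. Replicate 3 placed it at rank 1021 (signal 243.8, 27 bp away) and replicate 2 at rank 2657 (signal 91.21, 35 bp away). The E(spl)m7-HLH start site was the nearest annotated TSS to this summit, which makes it the only E(spl) bHLH gene whose IDR peak was nearest to its own TSS.

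At E(spl)m8-HLH (FBgn0000591; 3R, 26040240 to 26041008, plus strand) the IDR peaks lay on the side of the neighbouring gene gro. The stronger one (26042399 to 26042616, summit 26042484, signal 423.9, rank 834) lay in an intron of gro, 157 bp upstream of an internal gro TSS and 2244 bp past the start of E(spl)m8-HLH. It ranked 467 in replicate 2 (signal 224.8) and 1053 in replicate 3 (signal 240.2). The weaker one (26041465 to 26041848, summit 26041657, signal 184.6, rank 3192) was 79 bp upstream of the first gro TSS, at rank 2646 in replicate 2 and 4243 in replicate 3. Inside E(spl)m8-HLH itself, the pooled list had only a weak summit in coding sequence at 26040812, with a signal of 41.68 and rank 23011 of 30000. Replicate 3 had it at rank 19911 and replicate 2 had none. The count of E(spl)m8-HLH among the bound genes therefore rests on peaks at gro promoters.

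The other 4 E(spl) bHLH genes had weak peaks or none. In the whole pooled list, with 30000 peaks, 7 of the 10 genes had a peak in the window beside 61.6% of all genes, and 4 of the 7 E(spl) bHLH genes did beside 51.2% of genes of up to 2 kb. E(spl)mbeta-HLH (3R, 26005046 to 26006023, minus strand) was the gene that the pooled list added. It had 5 pooled peaks, the strongest 92 bp upstream of its TSS (summit 26006115, signal 69.35, rank 12545). Near that site replicate 2 ranked a summit 7590 (signal 48.88, at 26006170), and replicate 3 ranked one 20583 (signal 30.3, at 26006026).

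E(spl)mgamma-HLH had no pooled peak and a single weak summit in each replicate list, at rank 27237 in replicate 2 (signal 17.84) and 28877 in replicate 3 (signal 22.35). E(spl)mdelta-HLH had no peak in any of the 4 lists. E(spl)m5-HLH had a summit only in replicate 3 (26031142, signal 56.52, rank 8998), 1407 bp upstream of its TSS. In the full replicate lists 5 of the 7 genes had a peak in replicate 2, beside 53.6% of genes of up to 2 kb, and 6 of 7 in replicate 3, beside 54.0%.

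**Figure D1:**
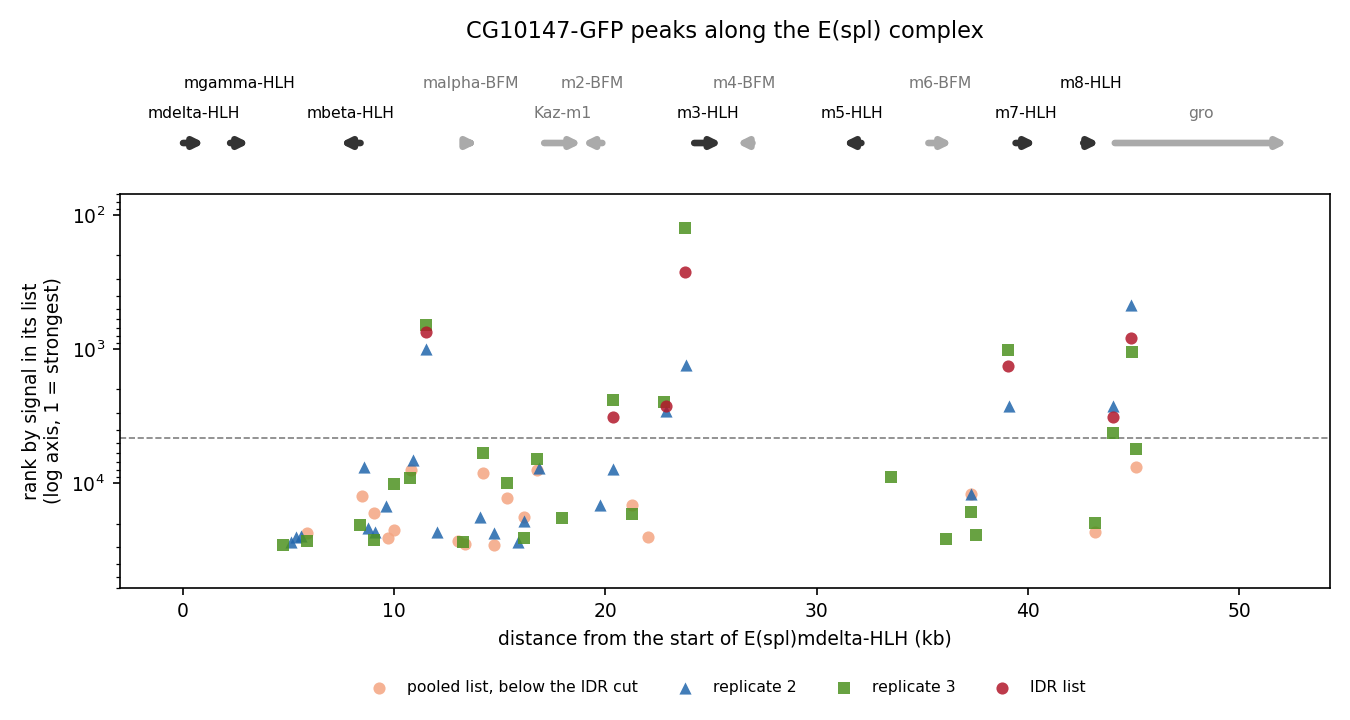
Peak summits along the E(spl) complex: the x axis is distance from the start of E(spl)mdelta-HLH in kb, the y axis is the rank of each peak by signal in its own list on a reversed log axis, and the dashed line marks rank 4576. Arrows above show the genes and their direction, bHLH members in black; IDR peaks (red) stand at E(spl)m3-HLH, E(spl)m7-HLH and gro and at 2 sites between E(spl)mbeta-HLH and E(spl)m3-HLH, with none at the left end.

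Across the complex, from E(spl)mdelta-HLH to gro (3R, 25997621 to 26049911, 52.3 kb), 7 IDR summits were counted, or 13.4 per 100 kb against 3.44 per 100 kb over the large arms. Of 52.3-kb windows laid end to end along the arms, 4.38% held 7 or more. In the pooled list the complex held 25 summits, 47.8 per 100 kb against 22.6, with 23 in replicate 2 (44.0 against 22.5) and 26 in replicate 3 (49.7 against 22.5). The summits were uneven. No pooled summit lay between 25968678 and 26003481, a stretch of 34.8 kb that holds E(spl)mdelta-HLH and E(spl)mgamma-HLH, and the replicate lists had gaps of 32.7 kb and 33.7 kb there. Of all pooled gaps 1.8% were at least as long, and such gaps together cover 32.0% of the large arms. Most of that stretch lies before the complex, whose first pooled summit is 5.86 kb from its start. A second gap, of 13.6 kb from 26021376 to 26034937, holds E(spl)m3-HLH, E(spl)m4-BFM, E(spl)m5-HLH and E(spl)m6-BFM. Of all pooled gaps 6.65% were at least as long, and they cover 56.8% of the arms. Replicate 2 had a gap of 13.5 kb there. In replicate 3 the gap was 9.77 kb, ended at a summit at 26031142 and did not hold E(spl)m6-BFM.

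In the complex, 2 IDR peaks fell outside the windows of the bHLH genes. The stronger (26008996 to 26009220, summit 26009118, signal 449.4, rank 744) was intergenic, 1775 bp upstream of E(spl)malpha-BFM, a Bearded family gene. It ranked 1001 in replicate 2 and 657 in replicate 3, which makes it stronger than the E(spl)m7-HLH peak in every list. The other (summit 26017970, signal 184.9, rank 3184) was 500 bp upstream of E(spl)m2-BFM and ranked 7847 in replicate 2 and 2390 in replicate 3. Of the genes of up to 2 kb, 6.56% had 2 or more IDR summits in the window, as E(spl)m3-HLH and E(spl)m8-HLH did.

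The gene neur (FBgn0002932; 3R, 9020348 to 9039471, minus strand) encodes the ubiquitin ligase that promotes endocytosis of Delta and had more IDR peaks than any other member, with 4. Of genes over 10 kb, 10.4% had at least as many. Its strongest (9033786 to 9034166, summit 9033955, signal 639.4, rank 373) lay 224 bp upstream of the internal TSS of neur, which is 5740 bp into the gene. It ranked 633 in replicate 2 (signal 191.2) and 277 in replicate 3 (signal 476.5), and its sequence had the lowest G+C content of the member peaks, 23.0% over 200 bp. The next (9031909 to 9032127, summit 9031984, signal 394.6, rank 956) was intronic, 1747 bp downstream of the internal TSS, and ranked almost alike in both replicates, 936 in replicate 2 and 989 in replicate 3.

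At the 5′ end of neur the peaks were weaker. A summit at 9039578, 107 bp upstream of the first neur TSS, had a signal of 250.2 and rank 1972, with rank 3691 in replicate 2 and 1579 in replicate 3. A summit at 9038833 had a signal of 167.7 and rank 3662, with rank 4034 in replicate 2 and 3855 in replicate 3. It lay in the 5′ UTR of hyx, which encodes a subunit of the Paf1 complex, 73 bp from a hyx TSS and 638 bp inside neur, and the summit at 9039578 is also in the hyx promoter. These weaker peaks cannot be divided between the overlapping genes. In all, neur had 10 pooled peaks, of which 4 were the IDR peaks. Its window held 12 peaks in replicate 2 and 7 in replicate 3. The pooled peaks below the IDR list included a summit at 9019980 at the promoter of tgo, the gene downstream (signal 104.9, rank 7280).

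The receptor gene N (FBgn0004647; X, 3134870 to 3172221, plus strand) had 1 IDR peak, deep in an intron. Its region ran from 3162414 to 3162625, with its summit at 3162571, a signal of 382.9 and rank 1013. The summit was 27701 bp downstream of the N TSS and 10569 bp from the nearest TSS of any gene, that of CG18508. The replicates ranked it almost alike, 1077 in replicate 2 (signal 148.1) and 1012 in replicate 3 (signal 244.6). The N promoter was just outside the IDR list: a pooled summit 137 bp upstream of the TSS had a signal of 138.4 and rank 4881, where the lowest IDR signal was 144.6. Replicate 2 ranked that site 3784 (signal 74.71), and the stronger of the replicate 3 summits there, at 3134632, ranked 9501 (signal 54.46). Another intronic summit, at 3157427, had a pooled signal of 128.8 and rank 5435, with rank 11871 in replicate 2 and 4211 in replicate 3. N had 8 pooled peaks, 9 in replicate 2 and 11 in replicate 3.

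The ligand gene Dl (FBgn0000463, listed as Delta in the annotation; 3R, 19302731 to 19326217, minus strand) was the long gene with no IDR peak. Its pooled peaks were intronic and weak, with signals of 44.56 (rank 21370) and 35.11 (rank 27374). The replicates differed there: replicate 2 had none in the window, and replicate 3 had 6, the strongest 274 bp upstream of the TSS with a signal of 56.04 and rank 9107.

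**Figure D2:**
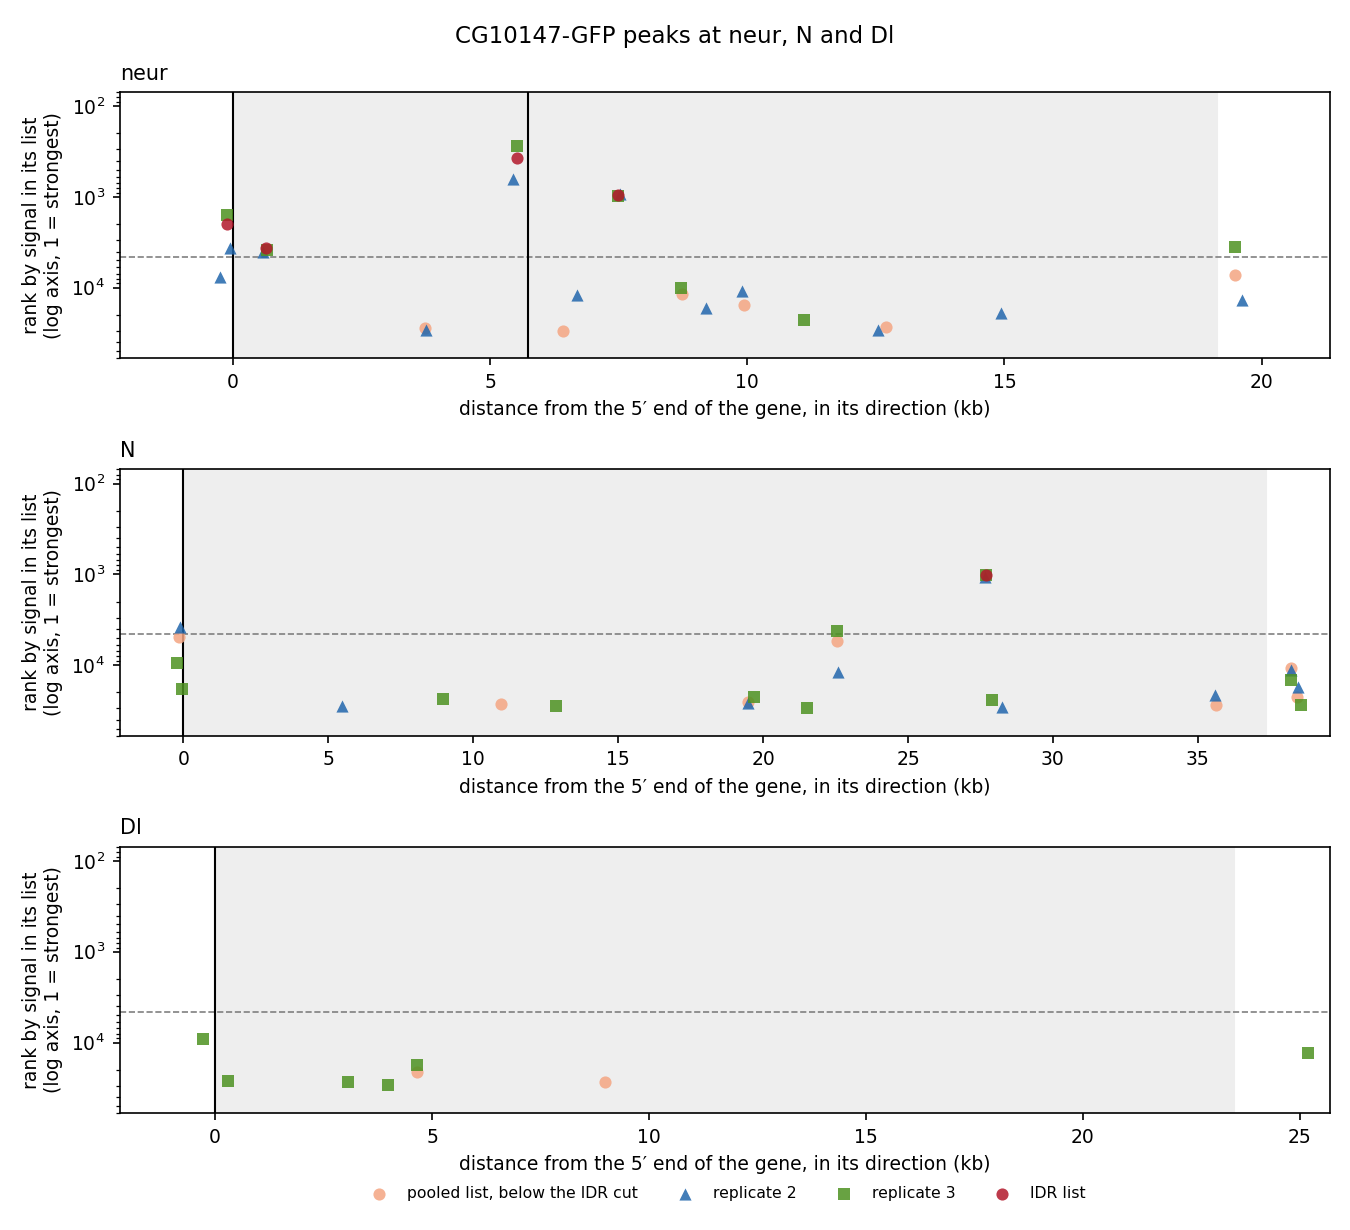
Peak summits at neur, N and Dl: the x axis is distance in kb from the 5′ end of each gene in its own direction, the y axis is rank by signal in each list on a reversed log axis, grey shading is the gene, black lines are annotated start sites and the dashed line marks rank 4576. The strongest neur peak (rank 373) stands beside the internal start site, the N peak (rank 1013) stands 27701 bp into the gene, and all Dl points lie under the dashed line.

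The replicates shared most of the member peaks. Of the 10 IDR peaks, 9 were matched in each replicate list by a summit no more than 100 bp away, as were 90.0% of all 4576. The same 9 also had one among the strongest 4576 of both lists, where 61.6% of all IDR peaks did. The member peaks had a higher median signal than the list, 352.1 against 228.7, and no comparison with peaks of like signal was made. When only the strongest 4576 peaks of a single replicate were used, 5 of the 10 genes had a peak in replicate 2 and 5 in replicate 3, beside 34.9% of all genes in each.

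Ranks differed most at E(spl)m3-HLH. Its promoter summit ranked 10.5-fold higher in replicate 3 than in replicate 2, and 0.656% of the 4117 IDR peaks matched in both replicates had as large a ratio in either direction. The E(spl)m7-HLH rank was 2.6-fold higher in replicate 3, a ratio that 19.0% of matched peaks reached. The promoter-side neur summits at 9033955 and 9039578 were each 2.3-fold higher in replicate 3. The gro-side peaks went the other way, with ranks 2.3-fold and 1.6-fold higher in replicate 2. The ratios were 1.1 at the N intron, 1.1 at the neur intron and 1.0 at the hyx 5′ UTR. Replicate 2 ranked 16 mitochondrial peaks above every member peak, which moves its ranks by at most that number.

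**Figure D3:**
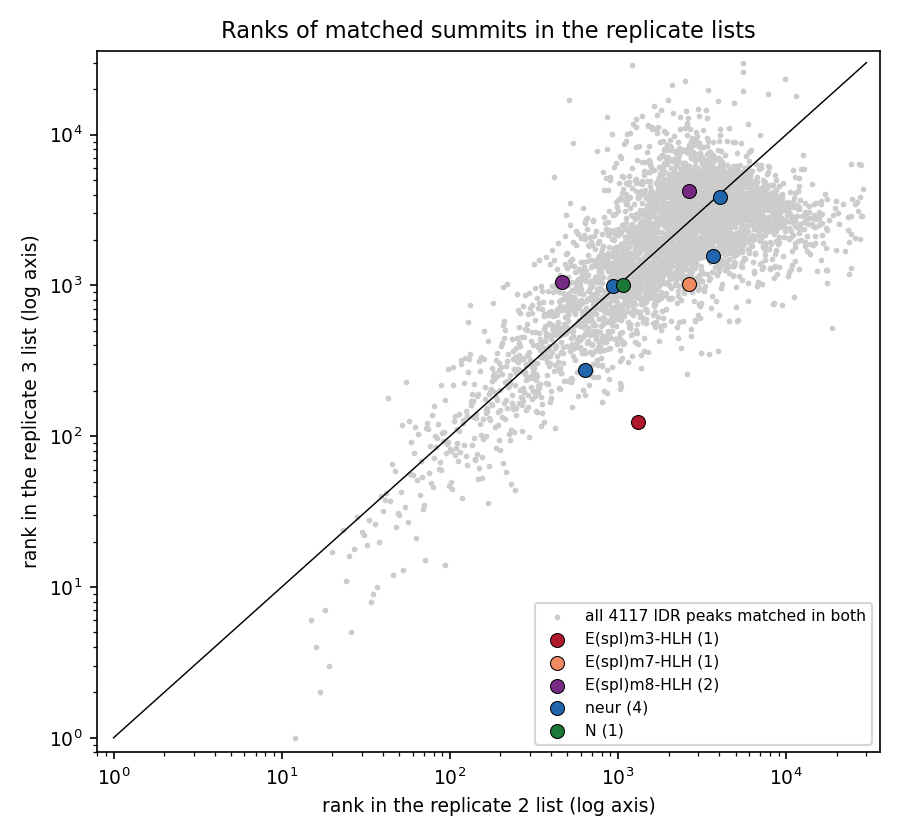
Ranks in the replicate 2 list (x axis) and the replicate 3 list (y axis), both log axes, of the 4117 IDR peaks matched in both lists (grey) and of the 9 matched member peaks (coloured), with the line of equal ranks. The E(spl)m3-HLH promoter, at rank 1310 and rank 125, lies farthest from the line among the member peaks.

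The member sites were AT-rich, as the IDR list was in general. The 200-bp windows around the 10 summits had a median G+C content of 34.5% (range 23.0% to 44.5%), and the windows of all IDR peaks had 33.5% (range 16.0% to 67.5%). AT-rich heptamers (AAAATAT or TTTAAAA or TAAAATA, on either strand) occurred in 5 of the 10 windows, beside 51.2% of all IDR windows and 36.6% of promoter windows, which ran from 150 bp upstream to 50 bp downstream of a TSS. The motif CGATA, known for the insulator protein BEAF, occurred in 4, beside 29.3% and 39.3%. TATAAA occurred in 4, beside 38.2% and 32.6%.

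Motifs known from the Notch pathway were searched in the same windows, along with other motifs (GAGAG, TATCGATA and CAGGTAG). Sites for Su(H), searched as CGTGGGAA or TGTGGGAA or CGTGAGAA or TGTGAGAA or CGTGTGAA or TGTGTGAA, occurred in 0 of the 10 windows, beside 3.34% of all IDR windows and 3.66% of promoters. Proneural E boxes (GCAGCTG or GCAGGTG or ACAGCTG or ACAGGTG) occurred in 1, the neur summit at 9038833, beside 8.83% and 15.0%. The N box CACNAG, a site bound by E(spl) proteins, occurred in 1, the neur summit at 9039578, beside 17.8% and 21.6%. In windows of 300 bp it occurred in 3, but the shares were counted for windows of 200 bp only. The B class E box CACGTG occurred in 1, the weaker E(spl)m3-HLH peak, beside 1.92% and 2.96%. GAGAG occurred in 1, the E(spl)m3-HLH promoter, beside 19.7% and 22.6%. The DNA replication-related element TATCGATA (4.11% and 8.21%), which contains CGATA, and the Zelda motif CAGGTAG (0.699% and 1.1%) occurred in none. An absent motif says only that those letters are not in the window.

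Of 38 other genes of the pathway, 14 (36.8%) had an IDR peak in the window and 9 (23.7%) at the promoter, both near the shares over all genes. Among genes for the receptor's processing, the strongest promoter peak was at aph-1, a subunit of gamma-secretase (signal 620.2), at a promoter shared with Snx21. The promoter of rumi, whose protein adds glucose to Notch, had a peak with a signal of 421.3 and is shared with CG7029 and Usp12-46. The metalloprotease gene kuz had a promoter peak of signal 155.8 and a stronger one elsewhere in its window, 338.5. Fucosyltransferase gene O-fut1 had a window peak alone, with a signal of 149.4. In all, 4 of 8 genes of this role had a window peak, beside 34.7% of all genes. At the promoter 3 of 8 had one, beside 20.3%. The role mixes short and long genes, and kuz spans 89273 bp.

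Among the ligand genes and those for their endocytosis, mib1, another ubiquitin ligase for ligands, had a promoter peak (signal 232.2), and Ser and lqf had none in the window. Among nuclear effectors, gro had the peaks described at E(spl)m8-HLH. The coactivator gene mam, which is 69154 bp long and so has a large window, had 9 IDR peaks in it. The strongest had a signal of 786.3. Of genes over 10 kb, 10.4% had 4 or more IDR peaks, and the share with 9 was not counted. The mam promoter peak, of signal 207.8, is shared with RN-tre and had no match in replicate 2. The corepressor gene CtBP had a window peak of signal 209.6. Su(H), its partner H and Hey had none.

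Of the 5 non-bHLH genes of the E(spl) complex, 3 had window peaks, beside 24.7% of genes of up to 2 kb, their size class. The 3 were E(spl)malpha-BFM, E(spl)m2-BFM and Kaz-m1, of which E(spl)m2-BFM had its peak at the promoter. These 3 genes rest on 2 peaks, since the peak in the Kaz-m1 window is the E(spl)m2-BFM promoter peak at 26017970. None of the 4 genes matched in the Bearded complex, whose proteins inhibit Neuralized, had an IDR peak in the window, where 24.7% of genes of up to 2 kb did. Among genes of Notch trafficking and turnover, 2 of 6 had one beside 34.7% of all genes, both at the promoter: numb, an inhibitor of Notch (signal 590.6), and Nedd4, a ubiquitin ligase (signal 216.1, shared with Edc3 and lncRNA:CR45165). Of 6 proneural genes and bHLH partners 1 had a window peak, beside 34.7% of all genes and 24.7% of those of up to 2 kb. It was da, the common partner of proneural proteins (signal 289.0).

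**Figure D4:**
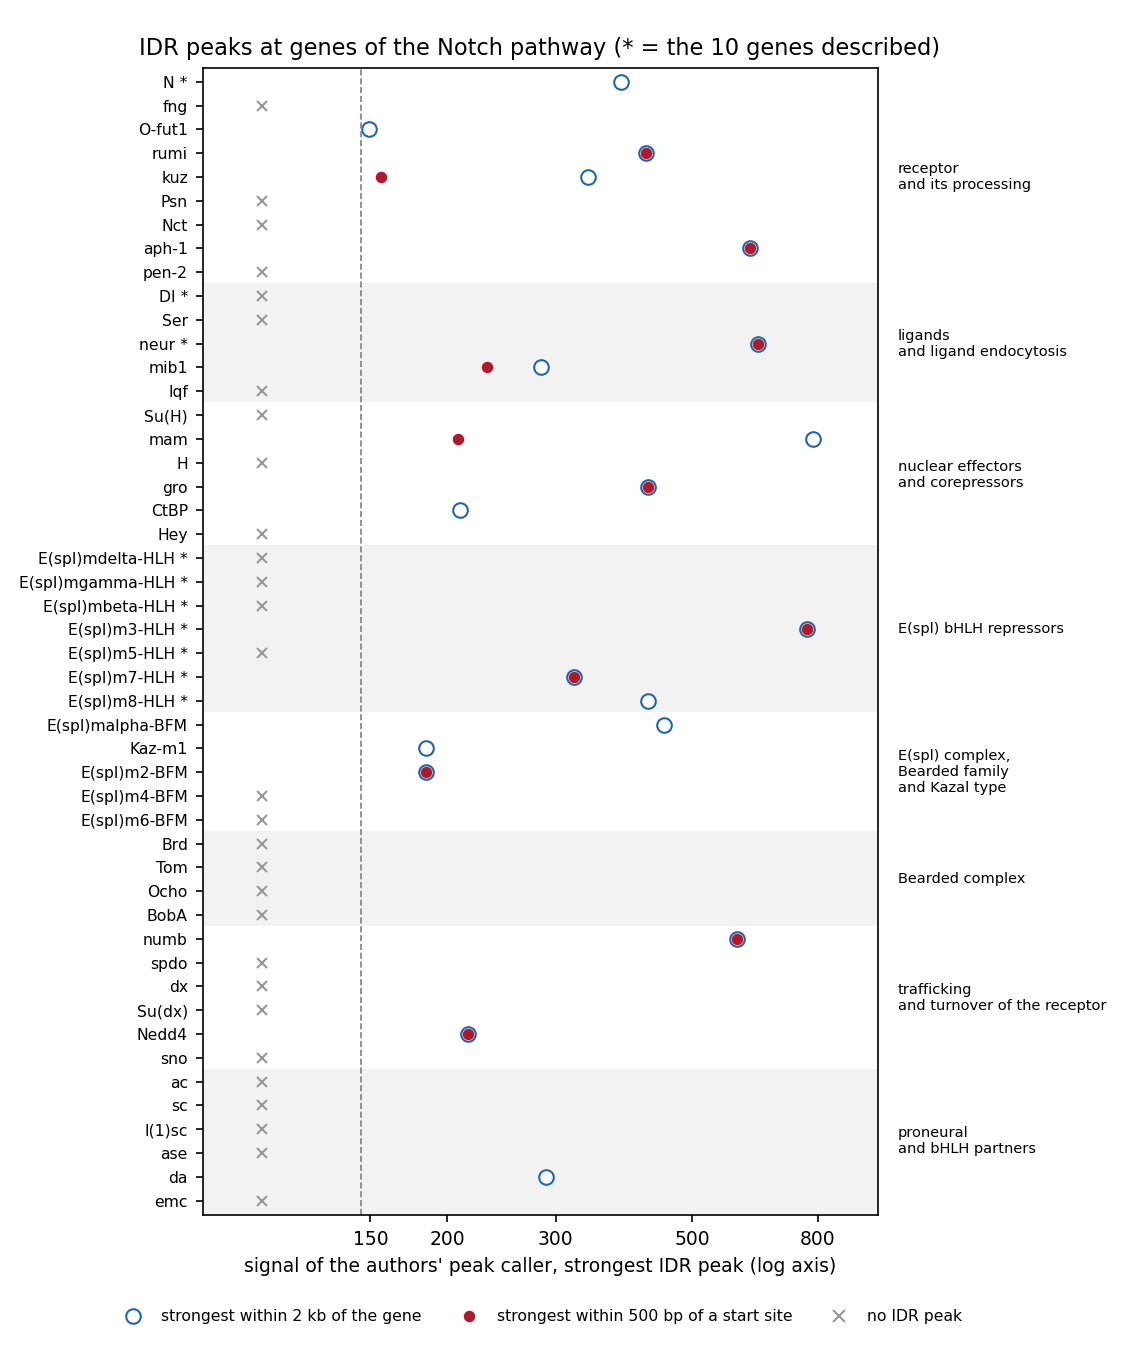
Signal of the strongest IDR peak in the window and at the promoter (x axis, log scale, authors' peak caller units) for each listed pathway gene (y axis), grouped by role. Crosses at the left mark genes with no IDR peak and have no value, and the dashed line is the lowest IDR signal, 144.6; mam (786.3) and E(spl)m3-HLH (767.6) stand farthest to the right.

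Genes whose promoter peaks were most like those of the members were found by the distance between log2 ranks over the 2 replicate lists. For E(spl)m3-HLH, with ranks 1310 and 125, the nearest were prage (IDR signal 784.2, ranks 808 and 169, distance 0.82), CG44838 (signal 686.1, ranks 1044 and 214, distance 0.84) and bin3 (signal 713.9, ranks 861 and 194, distance 0.88). For neur, with ranks 633 and 277, they were CG32137 (signal 649.1, ranks 654 and 274, distance 0.05), lola (signal 635.6, ranks 643 and 296, distance 0.1) and PCB (signal 647.9, ranks 695 and 270, distance 0.14). The E(spl)m3-HLH ranks thus had no match as near as those of neur.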

How the data were processed

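Peaks came from 4 narrowPeak lists on dm6, per the file headers and labels: a list for each of 2 replicates, a pooled list and the IDR list. The authors deposited a signal value for every peak, as their peak caller gave it, and its q-value as −log10. The latter was at its maximum, 4.13, for all 4576 IDR peaks, so ranks were taken by signal within a list. The aligner, peak caller and unit of the signal are not given in the sources used here. Read depth is unknown, so no interval was made, and the control was not analysed here.

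Python 3.11.15, pandas 2.3.3 and numpy 2.4.6 were used with FlyBase annotation 6.54 (Ensembl release 115), which has the same coordinates. A peak was counted for a gene if its summit fell inside the gene or up to 2000 bp outside; replicate summits matched within 100 bp. Scripts were tested on simulated data. Of 50 pathway symbols, 48 matched the annotation (BobB and BobC did not), with older names resolved through RefSeq. The rule named all members, pathway genes with an IDR peak at a promoter, neighbours at member peaks, and the 3 genes most like each of the 2 members with the strongest promoter peaks. Pathway genes with a window peak alone, or none, were named after their values were seen. Members, lists and motifs were chosen with earlier results of these data known.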

Additional observations from a re-analysis of the deposited data

How the results depend on the processing

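The members bound, 5 of 10 with 3 E(spl) bHLH genes, were the same with a flank of 1000 bp (all genes 29.5%). They were also the same with any overlap of the peak region (all genes 35.5%). With a flank of 5000 bp they were 6 and 4 (all genes 47.4%). The pooled list gave 7 and 4 (all genes 61.6%). With no flank, 2 members and 0 E(spl) bHLH genes had an IDR peak inside the gene (all genes 12.2%, other pathway genes 7). When each peak went to the gene with the nearest TSS, the counts were 2 and 1 (all genes 19.2%). The members bound stayed at 5 without either replicate (5 to 5), and the E(spl) bHLH count stayed at 3 (3 to 3), beside 34.9% of all genes. The other pathway genes with a window peak numbered 13 to 19 when a single replicate was used, 9 in the strongest 2288 IDR peaks (all genes 22.3%) and 25 in the pooled list (all genes 61.6%). For promoters, a distance of 200 bp left 1 member and 0 E(spl) bHLH genes (all genes 14.7%), and the pooled list gave 5 members (all genes 44.8%). Other pathway promoters numbered 10 to 14 from single replicates (all genes 20.6%) and 5 among the strongest 2288 (all genes 11.9%). They numbered 5 among peaks strong in both replicates (all genes 13.5%) and 22 in the pooled list (all genes 44.8%). Matching summits within 50 bp left 5 of the 10 member peaks in both replicates, and the share of all IDR peaks at that distance was not counted. The complex held 4 peaks among the strongest 2288, 25 in the pooled list and 6 to 7 from single replicates. The median rank of each bound gene's strongest matched summit was 834, and 1012 to 1077 in single replicates. AT-rich heptamers occurred in 3 windows of 100 bp and 8 of 300 bp. At 100 bp CGATA fell from 4 windows to 1 and TATAAA from 4 to 2. At 300 bp the N box rose from 1 to 3 and the proneural E box from 1 to 2. Wider windows hold more sequence, and the shares over all IDR and promoter windows were counted at 200 bp only. The motif counts at other widths therefore have no background beside them. No paired analysis was possible because there was 1 group and no test. The 2 libraries, the unknown depth and the mixed stages limit what these ranks show.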
